A study of Mus musculus with 5 samples.

Results

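The transcription factor genes Gata2, Gata3, Gata4, Gata5 and Gata6 were examined in DDX5 knockout and wild-type mouse embryonic stem cells by ChIP-seq, in which immunoprecipitated chromatin is sequenced. DDX5 is an RNA helicase of the DEAD-box family. The members were the 5 named genes, of 21631 protein-coding genes in the annotation, and every peak that overlapped a gene body or the 2 kb on either side of it, here called the gene's window. This gave 49 of the 54793 deposited peaks. They were 20 of 20994 H2AK119ub peaks of DDX5 knockout cells, 18 of 24235 H2AK119ub peaks of wild-type cells and 11 of 9564 RYBP peaks of wild-type cells. The choice used gene names and positions and no measured value, but it was made with earlier results of these data known.

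All 3 libraries came from the embryonic stem cell line MPI-II, cultured on feeder cells in serum with LIF, the MEK inhibitor PD0325901 and the GSK3 inhibitor CH99021. The DDX5 knockout (DDX5-/-) cells were a monoclonal line, made by transfection of a Cas9 nickase with paired guides in exon 2 of Ddx5 and selection with G418. A monoclonal line is 1 clone, so a feature of that clone and an effect of the deletion cannot be told apart. The histone mark was profiled in both genotypes. RYBP was profiled in the wild type, by use of an antibody to its alias DEDAF. Each of these 3 groups is 1 library, so differences between them have no replicate check and carry no p-value. The files hold peak positions only, and read depth is unknown. Coordinates are those of mm10, counted from 1.

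GATA factors bind DNA through a pair of zinc fingers that recognise the motif from which the family takes its name. Gata2 is needed for blood stem and progenitor cells, Gata3 for T cells and for the trophoblast, Gata4 and Gata5 for the heart and the endoderm, and Gata6 for the primitive endoderm. In embryonic stem cells such lineage regulators are held silent in part by Polycomb complexes. Polycomb repressive complex 1 places ubiquitin on histone H2A, the mark H2AK119ub. RYBP belongs to the variant forms of this complex, some of which are directed to CpG-rich promoters.

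The promoter sequences are shown because peaks of H2AK119ub and RYBP lay on or near these start sites. A further reason is that some variant complexes are known to be directed to CpG dinucleotides. The RefSeq promoter table of GRCm38.p6, the assembly that mm10 represents, had 4 start sites for 3 members: 2 for Gata2 and 1 each for Gata3 and Gata5. Each line gives the 250 bases before a start site, 5′ to 3′ on the strand of the gene, with every CG in capitals.
Gata2, first start (chr6:88193641-88193890, plus strand): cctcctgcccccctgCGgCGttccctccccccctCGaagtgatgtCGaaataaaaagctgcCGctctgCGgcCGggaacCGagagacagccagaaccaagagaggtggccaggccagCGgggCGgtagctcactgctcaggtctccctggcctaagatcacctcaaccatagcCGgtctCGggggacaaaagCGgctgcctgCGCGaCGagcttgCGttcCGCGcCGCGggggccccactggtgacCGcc
Gata2, internal start (chr6:88198414-88198663, plus strand): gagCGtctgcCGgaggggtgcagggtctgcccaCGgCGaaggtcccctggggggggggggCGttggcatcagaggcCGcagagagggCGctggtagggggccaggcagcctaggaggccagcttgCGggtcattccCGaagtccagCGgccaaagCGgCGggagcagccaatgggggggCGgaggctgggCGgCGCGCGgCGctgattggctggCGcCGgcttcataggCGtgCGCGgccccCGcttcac
Gata3 (chr2:9878601-9878850, minus strand): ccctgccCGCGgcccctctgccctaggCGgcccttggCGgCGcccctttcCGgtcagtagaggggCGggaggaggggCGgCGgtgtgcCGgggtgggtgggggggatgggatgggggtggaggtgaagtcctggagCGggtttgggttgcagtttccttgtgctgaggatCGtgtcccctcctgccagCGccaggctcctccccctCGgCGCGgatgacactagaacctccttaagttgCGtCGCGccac
Gata5 (chr2:180334680-180334929, minus strand): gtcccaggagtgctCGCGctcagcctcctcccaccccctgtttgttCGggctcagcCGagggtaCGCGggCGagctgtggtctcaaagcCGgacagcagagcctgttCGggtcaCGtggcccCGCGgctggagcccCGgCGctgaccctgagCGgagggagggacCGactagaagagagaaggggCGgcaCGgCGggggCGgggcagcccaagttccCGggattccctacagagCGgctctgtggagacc

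These stretches held 22 and 24 CG dinucleotides at the first and the internal start of Gata2, 19 at Gata3 and 22 at Gata5. The median over all 32619 promoters in the table was 6, so each of the 4 lay well above it. Over the 7032 promoters with a RYBP peak on the start site the median was 19. Over those with H2AK119ub there it was 10 in the knockout, for 1876 promoters, and 9 in the wild type, for 2440. The CG numbers at the Gata starts were thus at or above the median of RYBP-bound starts. Neither GATAA nor its reverse complement TTATC, which do not overlap each other, was found in any of the 4 stretches. At least 1 of these motifs was present in 22.6% of all promoters of the same length and in 10.2% of those with a RYBP peak on the start, so most promoters lacked them.

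All 5 genes carried H2AK119ub in knockout cells and all 5 in wild-type cells, and all 5 carried RYBP. Across protein-coding genes, a peak in the window was present for 23.6% in knockout H2AK119ub, 27.9% in wild-type H2AK119ub and 37.6% in RYBP. Peaks of all 3 libraries occurred together in 15.7%. No Gata gene lost or gained the mark altogether. Among genes with a wild-type H2AK119ub peak, 74.1% also had one in the knockout, so retention at 5 of 5 genes is what most marked genes showed. A long window meets a peak more easily than a short one, and the share of the window covered is therefore given for each gene.

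The mark covered 61081 bp of the 5 windows in knockout cells and 79057 bp in wild-type cells. This was 33.9% of the window sequence in the knockout and 43.8% in the wild type, against 2.16% and 3.24% over all protein-coding genes. Over the 4467 protein-coding genes marked in both genotypes it was 7.60% in the knockout and 10.9% in the wild type. The ratio of knockout to wild-type covered length was 0.773 over the 5 genes, 0.667 over all protein-coding genes and 0.698 over those marked in both genotypes. The median ratio was 0.793 for the 5 genes and 0.718 for all genes marked in both genotypes. Over the whole library the knockout had 20994 peaks of median width 1083 bp, against 24235 of 1360 bp in the wild type, whereas at the Gata genes it had 20 peaks against 18. Fewer cells with the mark and less mark per cell cannot be told apart in such bulk samples, nor from a lower read depth.

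**Figure D1:**
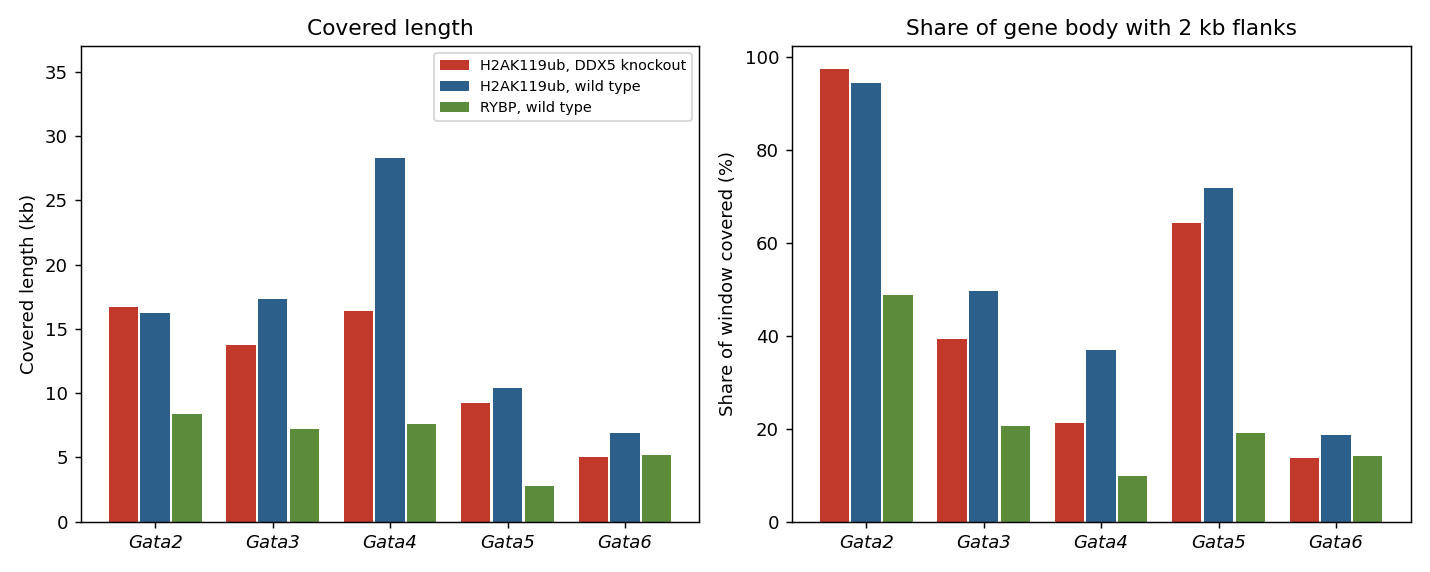
Length covered by peaks in kb (left) and share of the gene body with 2 kb flanks covered in percent (right) for each Gata gene, 1 library per bar: H2AK119ub in DDX5 knockout cells, H2AK119ub in wild-type cells and RYBP in wild-type cells. The knockout bar is lower than the wild-type bar at Gata3, Gata4, Gata5 and Gata6, and at Gata2 it stands for 16711 bp against 16192 bp.

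In order of the knockout to wild-type ratio, Gata4 had the lowest at 0.578, followed by Gata6 at 0.732, Gata3 at 0.793, Gata5 at 0.893 and Gata2 at 1.03. With 1 library per genotype there is no spread against which neighbours in this order can be separated. The knockout length was below the wild-type length at 4 of the 5 genes, where 78.6% of the 4467 protein-coding genes with the mark in both genotypes lay below, so the count is near the background. Ratios of all 5 genes lay between the 33.9 and the 81.4 percentile of those 4467 genes. In share of the window covered by the knockout mark the order was Gata2 (97.5%), Gata5 (64.2%), Gata3 (39.3%), Gata4 (21.3%) and Gata6 (13.6%). The wild-type mark gave the same order, with 94.5%, 71.9%, 49.6%, 36.8% and 18.6%. These shares placed the 5 genes between the 89.9 and the 99.87 percentile of all protein-coding genes in the knockout and between the 88.0 and the 99.47 percentile in the wild type. Of all those genes, 23.6% had the mark in the knockout and 27.9% in the wild type, so any marked gene ranks high here.

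**Figure D2:**
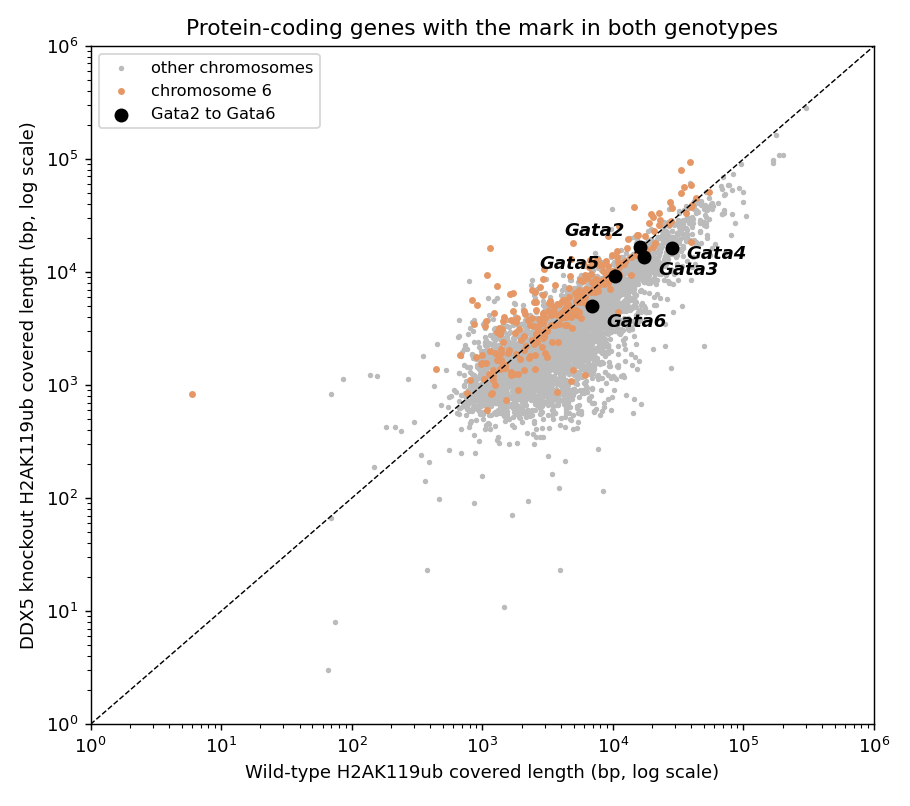
Covered length of H2AK119ub in gene windows, in bp on log axes, in DDX5 knockout cells (vertical) against wild-type cells (horizontal), for the 4467 protein-coding genes marked in both genotypes. Each point is 1 gene, chromosome 6 is drawn in orange, the Gata genes in black, and the dashed line marks equal lengths. With its flanks Gata2 lies just above the line, and the other 4 Gata genes lie below it.

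Gata2, gene ID 14461, lies on the plus strand of chromosome 6 from 88193891 to 88207032 and was the most fully covered member. H2AK119ub covered 16711 bp of its 17142 bp window in knockout cells and 16192 bp in wild-type cells. The main peak was 16679 bp wide in the knockout, from 88189815 to 88206493, and 16871 bp wide in the wild type, from 88189892 to 88206762. It ran over both start sites and nearly the whole gene, with almost the same outline in both genotypes. A further peak at the far end of the gene was 3306 bp wide in knockout cells, from 88206925 to 88210230, and 1507 bp wide in wild-type cells, from 88207713 to 88209219. RYBP occupied 8345 bp in 1 peak, from 88193208 to 88201552, which included both start sites and lay wholly within the mark of each genotype.

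With the flanks included, Gata2 was the member with more of the mark in knockout cells (788 bp found there alone against 269 bp found in the wild type alone), whereas over the gene body without flanks its ratio was 0.988. Chromosome 6 also differed from the other members' chromosomes. The ratio of covered length over the whole chromosome was 1.36, against 0.608 on chromosome 2, 0.649 on chromosome 14 and 0.670 on chromosome 18. Within 5 Mb on either side of Gata2, leaving out its window, the ratio was 1.27. On chromosome 6, 69.5% of the 272 genes marked in both genotypes had the longer cover in the knockout, against 21.2% over all chromosomes. The Gata2 ratio stood at the 39.3 percentile of those 272 genes. A window already covered to 94.5% in the wild type leaves little room for a higher ratio. The part of the chromosome-wide difference in the Gata2 value was not tested.

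Gata3, gene ID 14462, lies on the minus strand of chromosome 2 from 9857078 to 9887953. H2AK119ub covered 13721 bp of its 34876 bp window in knockout cells, in 4 peaks, and 17311 bp in wild-type cells, in 3 peaks. Every base of the knockout mark lay inside the wild-type mark, so the knockout pattern was a trimmed form of the wild-type one. The widest peak was 6624 bp in the knockout, from 9879947 to 9886570, and 9375 bp in the wild type, from 9879869 to 9889243. Where the wild-type peak reached 9889243 without a break, the knockout had a gap of 295 bp, a small peak of 754 bp and no mark beyond 9887619. This upper side overlaps the long noncoding RNA gene 9230102O04Rik, of whose 6500 bp the mark covered 4284 bp in the knockout and 6203 bp in the wild type. The noncoding gene 4930412O13Rik, inside the Gata3 gene and overlapping 9230102O04Rik, was covered over 5325 bp in the knockout and over its full 5522 bp in the wild type. The covered lengths of these overlapping genes share bases.

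The start site of Gata3 at 9878600 was outside the mark in knockout cells, where the nearest peak ended 217 bp downstream of it, and inside the mark in wild-type cells. This start lies inside the annotated gene, which reaches 9887953. Within 500 bp of it the mark covered 284 bp in the knockout and 630 bp in the wild type. The printed 250 bases before the start held 0 bp of mark in the knockout and 129 bp in the wild type, as well as 189 bp of RYBP. An unmarked stretch lay at or upstream of the start in each genotype, 1563 bp long in the knockout and 1139 bp long in the wild type. The start of Gata3 thus stood at the edge of a marked block in the wild type and in the gap in the knockout. Both Gata2 starts and the Gata5 start, in contrast, had mark over all 1001 bp within 500 bp in each genotype.

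RYBP formed 4 peaks over Gata3, of 1556, 2421, 2214 and 1206 bp. The second, from 9876369 to 9878789, covered the start site. The first and the third lay wholly within the mark in each genotype. The fourth, from 9888966 to 9890171, met none of the knockout mark and 278 bp of the wild-type mark.

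Gata4, gene ID 14463, spans 63198914 to 63271712 on chromosome 14 and showed the largest difference among the members. H2AK119ub covered 16346 bp of its 76799 bp window in knockout cells, in 8 peaks, and 28293 bp in wild-type cells, in 9 peaks. Wild-type marked sequence without the mark in the knockout came to 11982 bp, which is most of the 19308 bp of this kind over the 5 genes. The knockout added 35 bp. In each genotype the mark formed a pair of blocks in the upper part of the gene and left its lower part bare.

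The first block, joining peaks across gaps of up to 2 kb, spanned 13605 bp in knockout cells, from 63239415 to 63253019, and 18586 bp in wild-type cells, from 63238682 to 63257267. The second spanned 5602 bp in the knockout, from 63265459 to 63271060, and 12198 bp in the wild type, from 63261434 to 63273631. The second block was thus shorter in the knockout by the larger share, and at both of its edges. The gap between the blocks was 12439 bp in the knockout and 4166 bp in the wild type. Of the 9 wild-type peaks, 3 met no knockout peak: those of 942 bp from 63256326, of 1966 bp from 63261434 and of 945 bp from 63272687. All 3 were at the edge of a block and were narrower than the median wild-type peak at the Gata genes, 4047 bp.

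RYBP had 4 separate peaks over Gata4, of 1583, 3005, 1470 and 1540 bp. The widest, from 63244110 to 63247114, lay under the knockout mark over 2784 bp and under the wild-type mark in full. The last, from 63268144 to 63269683, lay in the second block and within the mark in each genotype. The third, from 63255285 to 63256754, had 0 bp of knockout mark and 672 bp of wild-type mark. The first had 417 bp of knockout mark and 1372 bp of wild-type mark. Between 63249630 and 63253019 the knockout kept a peak of 3390 bp with no RYBP peak over it, so at Gata4 the mark was also found away from RYBP peaks. The ratio of covered length over chromosome 14 was 0.649, and within 5 Mb of Gata4 it was 0.747, so the value of 0.578 at the gene lay below both. It was at the 37.1 percentile of the 140 genes of chromosome 14 with the mark in both genotypes.

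**Figure D3:**
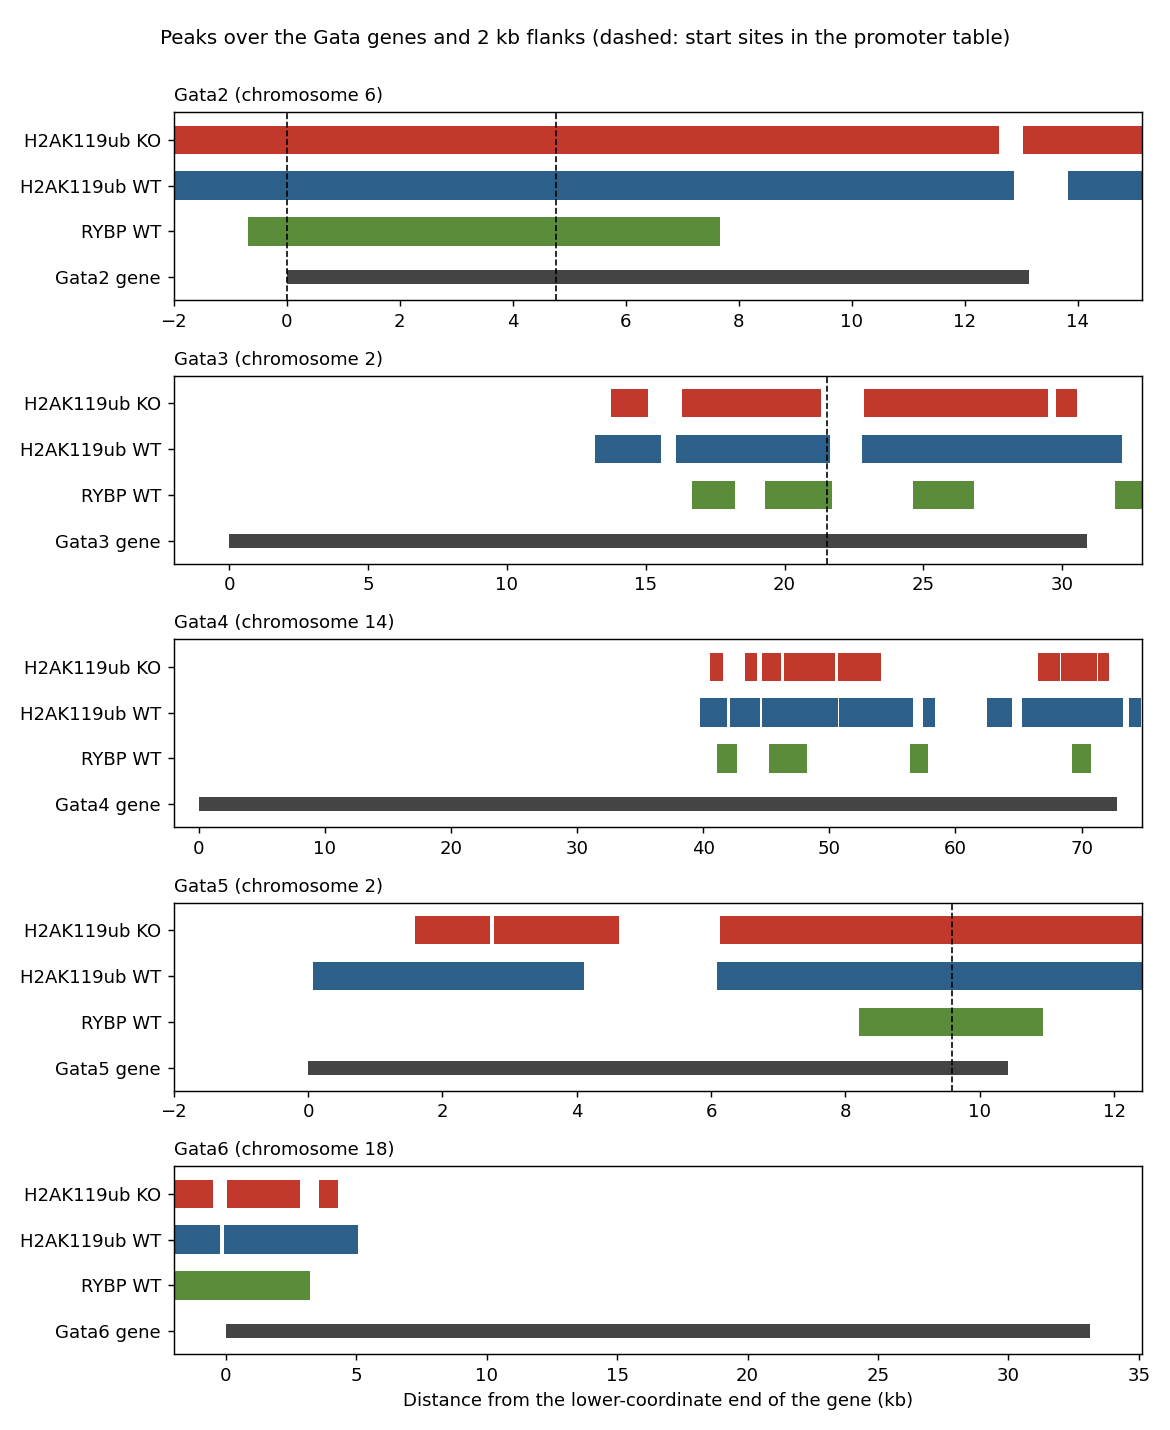
Peaks over each Gata gene and its 2 kb flanks, against distance in kb from the gene's lower-coordinate end, with a separate scale for each gene. Rows from top to bottom are H2AK119ub in DDX5 knockout cells, H2AK119ub in wild-type cells, RYBP in wild-type cells and the gene, and dashed lines are the start sites used. The 2 H2AK119ub rows of Gata2 are nearly the same, and at Gata4 the gap between the blocks is 12439 bp in the knockout and 4166 bp in the wild type.

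Gata5, gene ID 14464, lies on the minus strand of chromosome 2 from 180325088 to 180335503. H2AK119ub covered 9254 bp of its 14416 bp window in knockout cells and 10364 bp in wild-type cells. The peak over the start site at 180334679 was 8915 bp wide in the knockout, from 180331216 to 180340130, and 9130 bp wide in the wild type, from 180331174 to 180340303. It reached past the start over the noncoding gene Gata5os, of whose 7876 bp the mark covered 7274 bp in the knockout and 7447 bp in the wild type. The start-site peak thus had nearly the same outline in both genotypes, and the difference lay in the downstream peaks. There the knockout had peaks of 1109 and 1857 bp with 61 bp between them, against 1 wild-type peak of 4034 bp. The knockout pair ended 509 bp beyond the wild-type peak on the side of the start. RYBP had 1 peak of 2742 bp over the start, from 180333289 to 180336030, which was within the mark in each genotype. The ratio at Gata5, 0.893, lay above that of chromosome 2, 0.608, and of the surrounding 5 Mb on either side, 0.799.

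Gata3 lies on the same chromosome, and its ratio of 0.793 was also above 0.608. Its surroundings had little of the mark, with 7641 bp in the knockout and 17251 bp in the wild type within 5 Mb on either side. Those of Gata5 held 248334 bp in the knockout and 310826 bp in the wild type. Gata5 thus lay among many marked stretches, and Gata3 among few.

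Gata6, gene ID 14465, spans 11052510 to 11085636 on chromosome 18 and had the smallest covered share. H2AK119ub covered 5049 bp of its 37127 bp window in knockout cells and 6897 bp in wild-type cells. The mark lay around the lower end of the gene and reached 11056811 in the knockout and 11057584 in the wild type, with no peak over the rest of the gene. Peaks of 2569, 2805 and 748 bp with gaps of 537 and 716 bp formed the knockout mark, and peaks of 4060 and 5136 bp with a gap of 178 bp formed the wild-type mark. The knockout mark over the window lay entirely within the wild-type mark. The noncoding gene Gata6os overlaps the flank before the gene and lies mostly outside the window. Of its whole 10531 bp the mark covered 4712 bp in the knockout and 5163 bp in the wild type. RYBP formed 1 peak of 6013 bp, from 11049720 to 11055732, which ran across the gap at the lower end of the gene in both genotypes. Over the window RYBP covered 5223 bp, more than the 5049 bp of the knockout mark, which was so at no other member. The ratio at Gata6, 0.732, lay between that of chromosome 18, 0.670, and that of the 5 Mb on either side, 0.788.

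At the level of peaks, all 20 knockout peaks overlapped a wild-type peak by at least 1 bp, 100% (95% Wilson interval 83.9% to 100%). In the other direction, 15 of 18 wild-type peaks met a knockout peak, 83.3% (60.8% to 94.2%). Over the whole lists these shares were 66.5% of knockout and 48.9% of wild-type peaks. Peaks at the Gata genes were wide, with a median of 2213 bp against 1083 bp for all knockout peaks and 4047 bp against 1360 bp for all wild-type peaks, and a wide peak is more easily overlapped. Peaks of 1 gene share a locus, so the intervals, which cover counting error only, treat them as more independent than they are. No knockout peak met more than 1 wild-type peak, whereas 6 of the 18 wild-type peaks met more than 1 knockout peak. Over the whole lists 5.95% of knockout peaks and 10.7% of wild-type peaks met more than 1 peak of the other genotype. Among peaks at least as wide as the median at the Gata genes this was 21.0% in the knockout, for 2213 bp or more, and 64.6% in the wild type, for 4047 bp or more, so split peaks were more common among wide peaks in general. The split peaks of the Gata genes were at Gata3, Gata4, Gata5 and Gata6, and none was at Gata2.

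In base pairs, 59749 bp of the windows carried the mark in both genotypes, 1332 bp in the knockout alone and 19308 bp in the wild type alone. The knockout thus kept 75.6% of the wild-type marked sequence, and 69.7% without Gata2, where all protein-coding genes marked in both genotypes kept 53.0%. Of the knockout mark, 97.8% lay within the wild-type mark, against 75.9% for those genes. Little of the knockout mark at the Gata genes was outside the wild-type mark. The wild-type mark covered 43.8% of the Gata windows, against 10.9% of the windows of protein-coding genes marked in both genotypes. Dense cover and wide peaks overlap more easily, so these contrasts do not set the Gata genes apart from other densely marked genes.

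RYBP covered 8345 bp of the Gata2 window, 7598 bp of Gata4, 7179 bp of Gata3, 5223 bp of Gata6 and 2742 bp of Gata5. Ranked by covered length among the 21631 protein-coding genes, Gata2 was at 72, Gata4 at 90, Gata3 at 104, Gata6 at 291 and Gata5 at 1586. Long genes can rank high in length alone. In share of the window covered by RYBP, Gata2 was at the 99.21 percentile, Gata3 at 94.65, Gata5 at 93.99, Gata6 at 91.26 and Gata4 at 87.7. Of all protein-coding genes 37.6% had a RYBP peak, so any gene with RYBP ranks high here. By peaks, 9 of 11 RYBP peaks overlapped the knockout mark (81.8%, Wilson interval 52.3% to 94.9%) and all 11 overlapped the wild-type mark (100%, 74.1% to 100%). As with the H2AK119ub peaks, peaks of the same gene share a locus, and these intervals treat them as more independent than they are. Among all RYBP peaks, 40.2% overlapped the knockout and 46.4% the wild-type mark. RYBP peaks at the Gata genes had a median width of 2214 bp, against 1634 bp for all RYBP peaks. Of the RYBP sequence in the Gata windows, 83.4% was marked in the knockout and 93.7% in the wild type. Over protein-coding genes marked in both genotypes these shares were 55.0% and 62.3%. The mark itself covered 33.9% of the Gata windows in the knockout and 43.8% in the wild type, against 7.60% and 10.9% for those genes. RYBP peaks meet a denser mark more easily, so these contrasts do not set the Gata genes apart from other densely marked genes.

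Wild-type mark under RYBP peaks was kept to a greater extent than the rest at each of the 5 genes. At Gata6, 85.3% of the wild-type marked sequence under RYBP was also marked in the knockout, against 40.4% outside RYBP. The kept sequence outside RYBP at Gata6 was a knockout peak of only 748 bp, so this contrast rests on little sequence. At Gata5 the shares were 100% under and 78.8% outside RYBP, and at Gata3 they were 90.3% and 72.8%. The smallest difference was at Gata2, where little was lost, with 100% and 96.6%, and at Gata4 the shares were 72.0% and 53.3%. Summed over the 5 genes, 89.0% was kept under RYBP and 67.8% outside it. The 3399 protein-coding genes with peaks of all 3 libraries showed the same direction, with 78.5% and 49.0%. The fourth RYBP peak of Gata3 and the third of Gata4 met the ends of wild-type peaks and had 0 bp of knockout mark. These shares take no account of where a stretch lay within a marked block, and the part of that position was not tested. RYBP was profiled in wild-type cells alone, and these shares say nothing of where it lay in the knockout.

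**Figure D4:**
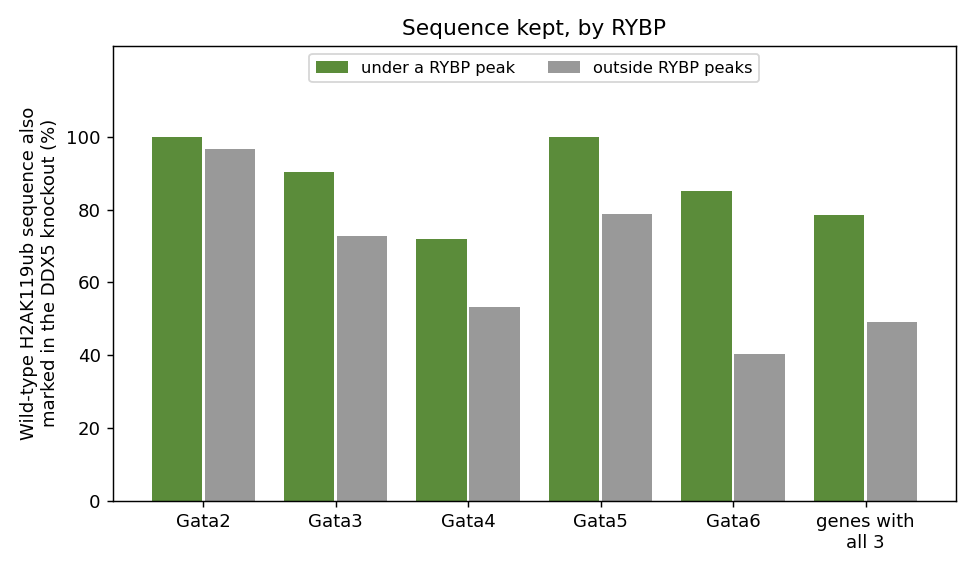
Share of wild-type H2AK119ub sequence that was also marked in DDX5 knockout cells, in percent, under RYBP peaks and outside them, for each Gata gene and for the 3399 protein-coding genes with peaks of all 3 libraries. Each bar is a share of base pairs from 1 library per genotype. The bar under RYBP is the higher at each gene, from 72.0% to 100%, against 40.4% to 96.6% outside RYBP. The lowest bar, at Gata6 outside RYBP, stands for a kept peak of 748 bp.

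Among other genes with GATA-type zinc fingers, Gata1, the erythroid member on chromosome X, had no peak of H2AK119ub in either genotype and none of RYBP in its 21404 bp window. Of 10 such genes, 1 was marked in the knockout and 1 in the wild type, in each case Mta1, a subunit of a chromatin remodelling complex, with 2989 bp in the knockout and 1921 bp in the wild type. RYBP was present at 2 of the 10. Over all protein-coding genes the shares were 23.6%, 27.9% and 37.6%, so most genes of any kind lacked these peaks, and counts in a list this short cannot be set apart from them. The same shares are the background for the lists that follow.

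Among partners of GATA factors, mainly blood regulators, the knockout had the mark at 9 of 13 and the wild type at 12, and 10 had RYBP. Zfpm1, which encodes the GATA cofactor FOG1, had 36423 bp of mark in the knockout, 57044 bp in the wild type and 8787 bp of RYBP. Its paralog Zfpm2 had no H2AK119ub and 2252 bp of RYBP, so the cofactors differed from each other. Runx1, a regulator of blood stem cell formation, had 22707 bp in the knockout and 25099 bp in the wild type, and Tal1, which acts with GATA factors in blood cells, had 10324 and 10400 bp. Only the wild type had the mark at Tcf3 (2176 bp), Klf1 (2052 bp) and Ldb1 (715 bp). None of the 13 was marked in the knockout alone.

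Of the genes of the primitive endoderm, the lineage that Gata6 specifies, the same 10 of 17 were marked in both genotypes, and 10 had RYBP. The longest cover was at the basement membrane collagen genes Col4a2, with 14621 bp in the knockout and 71658 bp in the wild type, and Col4a1, with 5047 and 33673 bp. These neighbours lie on chromosome 8, where the ratio of covered length was 0.632 over the chromosome and 0.262 within 5 Mb of the pair, outside both windows. The list's ratio of 0.386 was 0.843 without this pair. Amn, an endocytic receptor subunit, had 6766 bp in the knockout and 8497 bp in the wild type.

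Of the trophoblast genes, the knockout had the mark at 9 of 14 and the wild type at 10, and 11 had RYBP. The regulators Tfap2a (11526 bp in the knockout and 11729 bp in the wild type), Cdx2 (9591 and 9849 bp) and Dlx3 (8486 and 9026 bp) had the longest cover, and at Esx1 the wild type alone had the mark, over 825 bp. Heart genes were marked at 10 of 12 members in the knockout and 9 in the wild type, and 8 had RYBP. Tbx5, a regulator of heart and forelimb, had 26886 bp in the knockout and 38523 bp in the wild type. Myh6, a cardiac myosin heavy chain gene, had 10486 and 10429 bp, and Tnnt2, cardiac troponin T, had 779 and 9868 bp. Neither of these structural genes had RYBP. Myocd, a coactivator in heart and smooth muscle, was marked in the knockout alone, over 733 bp. Over the 78 genes of the 6 lists, the knockout had the mark at 40 and the wild type at 44, and 44 had RYBP. This was 51.3% and 56.4% for the mark and 56.4% for RYBP, beside 23.6%, 27.9% and 37.6% over all protein-coding genes. The lists were made of lineage and stem cell genes chosen with earlier results known, so these shares are a description.

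The stem cell factors Pou5f1, Nanog and Sox2 had no peak in their windows in any library. Of 12 pluripotency genes, 1 was marked in the knockout and 2 in the wild type, beside 23.6% and 27.9% over all protein-coding genes, so an unmarked window was the usual state in general. Esrrb, an orphan nuclear receptor gene, had 8525 bp in the knockout and 31314 bp in the wild type, and Nr5a2 had 2507 bp in the wild type alone. A peak list holds no expression level, so it does not check the cell type or the knockout by itself. Ddx5 had no H2AK119ub peak in either genotype and 2289 bp of RYBP in the wild type, and Rybp had 1673 bp of the mark in the knockout and 1300 bp in the wild type.

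Genes elsewhere with the most similar cover in the 3 libraries were found by the distance between the 3 covered shares, in percentage points. For Gata2 they were Foxl1 (distance 3.02) and Hoxb4 (3.75), both genes of developmental transcription factors. For Gata3 they were Coro1a (2.50) and Hp (2.87), for Gata4 Oplah (2.23) and Pdgfb (2.41), for Gata5 Pcdh1 (3.71) and Myod1 (4.52), and for Gata6 Fam217b (2.17) and Htra4 (2.41). Foxl1 was covered over 97.4% of its window in the knockout, 94.5% in the wild type and 51.7% by RYBP. The likeness rests on 3 values per gene. Windows differ in length, so a like share can be a different length: Foxl1 has a window of 6960 bp and Gata2 one of 17142 bp.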

How the data were processed

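The data were 1 H2AK119ub library of DDX5 knockout cells, 1 of wild-type cells and 1 RYBP library of wild-type cells, grouped by their titles. The 2 input libraries were not analysed here. Bowtie2 2.2.5, MACS 1.4 and the build mm10 are named in the submitters' processing notes. What each tool did, the peak threshold and the use of inputs are not stated in those notes or in the labels. For each library the authors deposited 1 peak list, so peaks were called per library. The deposited score column holds 0 for every peak, so positions alone were used, and a shallower or less enriched library would give fewer and narrower peaks.

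Starts were converted to positions counted from 1. Gene positions were read from RefSeq's GRCm38.p6 annotation (21631 protein-coding genes on the autosomes and X), and start sites and promoters from the RefSeq promoter table of the same build. Covered length and peak number were computed for each gene body with 2 kb flanks, with an overlap of at least 1 bp, in Python 3.11.15 with pandas 2.3.3, numpy 2.4.6 and scipy 1.17.1. The computation returned exact values for 200 of 200 simulated gene windows. With 1 library per group no test between groups was run. Wilson intervals are at 95%.

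The 5 genes and the 6 gene lists (78 genes, all matched) were chosen with earlier results of these data known. Named genes were the 5 members with all their peaks and overlapping genes, Ddx5, Rybp, Gata1, Zfpm1, Zfpm2, the 3 members of each list with the longest wild-type cover, up to 3 marked in 1 genotype alone, and the 2 genes most like each Gata gene. Pou5f1, Nanog and Sox2 were named after their values were known. Alternatives were other windows, a 50% overlap, merging of peaks within 2 kb, a minimum width of 1 kb and equal numbers of peaks.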

Additional observations from a re-analysis of the deposited data

How the results depend on the processing

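The number of Gata genes with H2AK119ub was 5 in the knockout and 5 in the wild type under each of 7 other settings, and the summed ratio of knockout to wild-type covered length lay between 0.706 and 0.807, the lowest without Gata2, an alternative chosen after seeing the data. RYBP was present at 5 members, and at 4 with windows of 2 kb around the gene ends alone, which miss the RYBP peaks inside Gata4. Listed genes with a peak ranged from 35 to 43 in the knockout, from 39 to 45 in the wild type and from 38 to 44 for RYBP. The Gata2 ratio of 1.03 was 0.988 over the gene body with no flank, 1.0 with peaks within 2 kb merged and at most 1.10 otherwise. Its direction thus depends on the window and on the gaps between peaks. The far-end peak begins at 88206925 in the knockout, just inside the gene, and at 88207713 in the wild type, in the flank. With windows at the gene ends alone, Gata3 had a ratio of 0.417 and Gata4 of 0.355. The primitive endoderm ratio of 0.386 was 0.792 with windows at the gene ends and 0.843 without Col4a1 and Col4a2, also chosen after seeing the data. The other 38 values for single genes and that list were on the same side of equal length, or at it, and within 1.5 times the main value. Among these, the Gata6 ratio of 0.732 was 0.983 with the 50% overlap, 0.906 at the gene ends and 0.624 with the 1 kb minimum width. With the 50% overlap it stood above Gata3, Gata4 and Gata5, so the place of Gata6 in the order depends on the setting. No paired analysis was possible because each group has 1 library. Depth is unknown, so a missing peak may lie under the threshold of a shallower library.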

Other observations

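Beyond the 2 kb flanks, out to 20 kb, the members' surroundings differed. On the higher-coordinate side of Gata2 the mark covered 2958 bp in the knockout and 8085 bp in the wild type, and on the lower side 5433 bp in the knockout and 3386 bp in the wild type. The noncoding gene Gm38708, which overlaps Gata2 on that lower side, had 18392 bp of mark in the knockout and 10661 bp in the wild type. The Gata2 gene body therefore had nearly equal cover between surroundings that differed in opposite directions.

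On the higher side of Gata3 the knockout had no peak and the wild type had 3895 bp in 3 peaks. Gata5 was flanked by mark in both genotypes, with 5625 bp in the knockout and 4061 bp in the wild type on the lower side and 8703 and 8482 bp on the higher side. The noncoding gene Gm52543 on that higher side had 8144 bp in the knockout and 7867 bp in the wild type. At Gata4 the higher side had 698 bp in the knockout and none in the wild type. Joined across gaps of up to 2 kb, the mark around Gata2 spanned 23909 bp in the knockout and 21269 bp in the wild type, and around Gata5 19185 and 20119 bp. The joined RYBP stretch at Gata2, 12561 bp, ranked at 10 of 9043 such stretches by length.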
